A study of Mus musculus with 12 samples.

Results

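RNA of 5 genes that make transmitter glutamate or load it into synaptic vesicles was followed on the ribosomes of SF1 cells of the mouse ventromedial nucleus (VMN), a part of the hypothalamus. The genes were chosen by name: the vesicular glutamate transporter genes Slc17a6, Slc17a7 and Slc17a8, the glutaminase gene Gls2 and the glutamate dehydrogenase gene Glud1. They were 5 of the 46517 gene identifiers in the count files, and each matched 1 identifier.

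The method was translating ribosome affinity purification, which captures tagged ribosomes from one kind of cell together with the RNA being translated on them. There were 6 pools of 6 animals, and each pool gave an output library of pulled-down RNA and an input library of the dissected tissue. All mice ate regular chow, were fasted overnight and carried an adeno-associated virus (AAV) for the ribosomal protein L10 fused to GFP. The 3 DN pools also carried an AAV for a dominant-negative mutant of AMPK, the kinase switched on by low cellular energy, and the 3 CTRL pools did not, per their characteristics. The 4 groups, with 3 libraries each, were thus DN output, DN input, CTRL output and CTRL input. For CTRL samples the labels conflict, since their treatment field also lists the DN virus, and the characteristics and titles were followed. The sources used here do not give whether CTRL mice had a second virus in its place, what restricts the tagged protein to SF1 cells, or the strain, age and sex of the mice.

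Glutamate is packed into synaptic vesicles by a vesicular transporter that uses the proton gradient built by the vesicular proton pump. Slc17a6 encodes the transporter typical of hypothalamic and thalamic neurons, Slc17a7 that of cortical, hippocampal and cerebellar neurons, and Slc17a8 a form found in scattered neurons, many of which release another transmitter too. Glutaminase makes glutamate from glutamine in mitochondria, and glutamate dehydrogenase interconverts glutamate and alpha-ketoglutarate there. Released glutamate is taken up mainly by astrocytes, where glutamine synthetase turns it back into glutamine. SF1 neurons of the VMN are known as glutamate neurons.

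The libraries held 34.6 to 55.5 M gene counts. Genes of the mitochondrial chromosome took 17.9% to 26.1% of them in outputs and 74.9% to 79.7% in inputs, which left 26.2 to 32.1 M nuclear counts in outputs and 8.54 to 11.3 M in inputs. Nr5a1, the gene that encodes SF1, had 10.9, 31.1 and 25.1 counts per M after normalization (CPM) in the outputs of DN pools 1, 2 and 3, against 6.50, 6.88 and 4.72 CPM in their inputs. It had 36.2, 19.2 and 12.5 CPM in the outputs of CTRL pools 1, 2 and 3, against 1.95, 2.97 and 1.29 CPM in their inputs. It was higher in the output of each pool and rose in CTRL (log2 fold change 3.44 ± 0.55, SE, adjusted p = 0.00751, edgeR's quasi-likelihood test with Benjamini-Hochberg adjustment), while in DN it did not pass (1.88 ± 0.55, adjusted p = 0.0946). The CTRL call ended with limma-voom and without CTRL pool 1 or pool 2 (adjusted p up to 0.165), and in DN it passed with DESeq2 (adjusted p = 0.0083) and without the filter on low counts (0.0388). Of 10 markers of VMN neurons, 8 rose in DN outputs, where 1.84% of all tested genes were called higher, and 8 in CTRL outputs, where 1.78% were. With limma-voom 5 of the 10 passed in DN and 7 in CTRL, given without that tool's share of all genes. Summed over the list, they had 1134 to 1483 CPM in DN outputs against 322 to 431 CPM in DN inputs, and 924 to 1080.0 CPM in CTRL outputs against 267 to 346 CPM in CTRL inputs. Markers of astrocytes summed to 1122 to 1217 CPM in DN outputs against 3085 to 3490.0 CPM in DN inputs. In CTRL they summed to 1636 to 1854 CPM in outputs against 3002 to 3572 CPM in inputs. The outputs thus still held RNA of these markers, and which cells it came from was not tested. Most of these sums was Slc1a2; the 9 other astrocyte markers summed to 228 to 299.6 CPM in DN outputs against 931 to 1070.0 CPM in DN inputs, and to 243 to 337 CPM in CTRL outputs against 839 to 892 CPM in CTRL inputs.

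The 3 transporter genes are close relatives, and their coding sequences were compared to see whether reads could be split between them. The identity over the aligned coding sequence was 69.0% for Slc17a6 and Slc17a7, 69.2% for Slc17a6 and Slc17a8, and 66.0% for Slc17a7 and Slc17a8. A stretch that holds the longest exact run shared by Slc17a6 with each of the others is shown. It is read 5′ to 3′ from the GENCODE M21 transcripts on GRCm38. Capitals mark the 21 of 90 positions where the genes do not all have the same base. The stretch covers coding positions 211 to 300 of Slc17a6, 187 to 276 of Slc17a7 and 265 to 354 of Slc17a8, counted from the first base of the start codon.
Slc17a6: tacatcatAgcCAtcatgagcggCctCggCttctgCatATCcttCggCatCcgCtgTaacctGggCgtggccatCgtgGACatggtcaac
Slc17a7: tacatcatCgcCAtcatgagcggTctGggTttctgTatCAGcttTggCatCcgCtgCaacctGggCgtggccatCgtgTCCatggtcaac
Slc17a8: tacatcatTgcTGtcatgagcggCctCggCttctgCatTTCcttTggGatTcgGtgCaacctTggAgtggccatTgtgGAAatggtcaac
In this stretch, Slc17a7 differed from Slc17a6 at 12 bases and Slc17a8 differed from it at 13. The longest exact run shared by the coding sequences was 25 bases for Slc17a6 and Slc17a8, 21 bases for Slc17a6 and Slc17a7 and 17 bases for Slc17a7 and Slc17a8. No 50-base window of the Slc17a6, Slc17a7 or Gls2 transcript occurred in the transcripts of another gene, and 1.36% of those of Slc17a8 did, none of them in Slc17a6 or Slc17a7.

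Slc17a6 made up nearly all of the transporter RNA on the pulled-down ribosomes. The gene (ENSMUSG00000030500) lies on the plus strand of chromosome 7 at 51622006 to 51671119 on GRCm38. In DN pools 1, 2 and 3 it had 996, 811 and 709 CPM in outputs, against 349, 331 and 249 CPM in inputs. In CTRL pools 1, 2 and 3 it had 692, 610.0 and 694 CPM in outputs, against 270.3, 323 and 268 CPM in inputs. Each output lay above every input, in DN and in CTRL. Outputs and inputs did not overlap for 22.5% of the genes tested in DN and 23.2% in CTRL. The Slc17a6 values rest on 39188 to 67599 counts per output library and 6001 to 9768 per input library. Per kilobase of exon, Slc17a6 averaged 155 ± 27.0 CPM in DN outputs, 57.3 ± 9.91 in DN inputs, 123 ± 8.86 in CTRL outputs and 53.2 ± 5.76 in CTRL inputs (SD, n = 3 each). On that scale of level it ranked 37th of 13430 protein-coding nuclear genes in DN outputs and 146th in DN inputs. It ranked 45th in CTRL outputs and 147th in CTRL inputs.

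**Figure D1:**
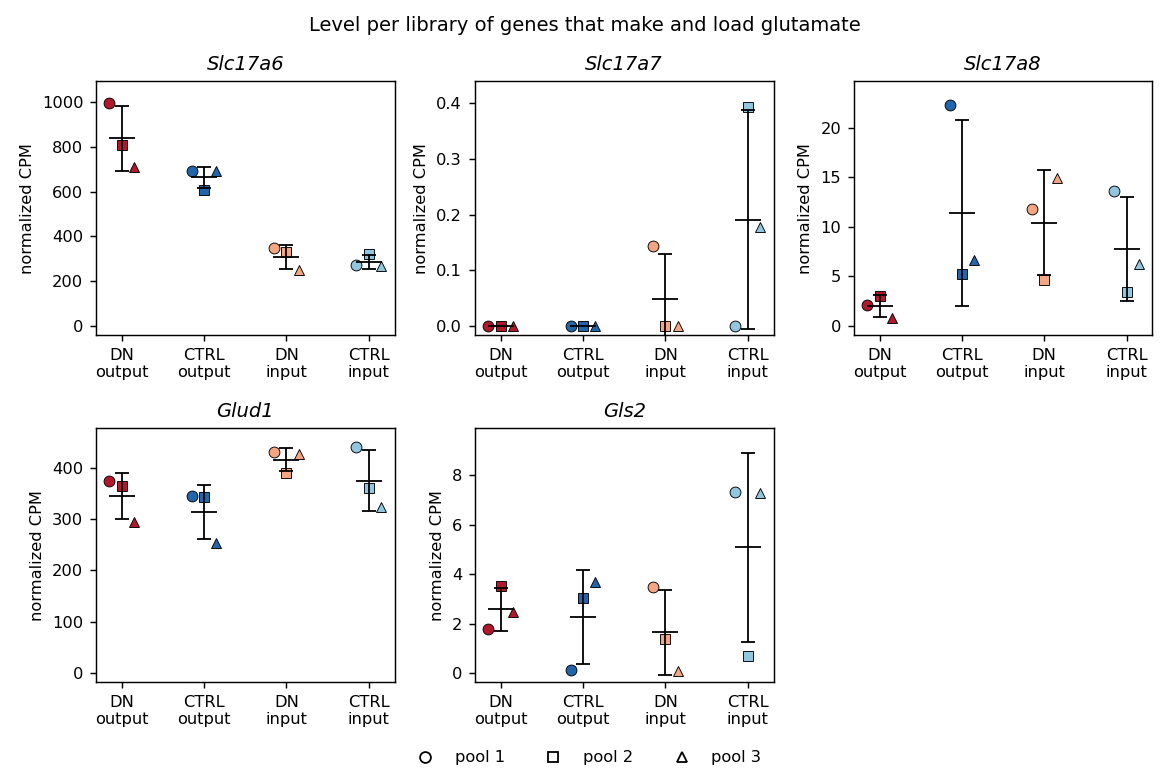
Normalized CPM (vertical axes, linear, a scale of its own for each panel) of Slc17a6, Slc17a7, Slc17a8, Glud1 and Gls2 in the 4 groups (horizontal axes). Each point is 1 library and bars give the mean and SD of 3 libraries. Slc17a6 lies between 610.0 and 996 CPM in the 6 outputs, above the 249 to 349 CPM of the 6 inputs, while Slc17a7 is at 0 in all 6 outputs.

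Slc17a7, the cortical type of transporter, was not detected on SF1 cell ribosomes. The gene (ENSMUSG00000070570, chromosome 7, 45163949 to 45176142, plus strand) had 0 counts in each of the 6 outputs. Its input counts were 4, 0 and 0 in DN pools 1, 2 and 3 and 0, 11 and 4 in CTRL pools 1, 2 and 3. A count of 0 allowed up to 3 counts, or 0.0412 to 0.0493 CPM per output library. A floor of 3 counts over the CTRL outputs (0 counts) lay 12.3-fold below the level of CTRL inputs (15 counts). Of those 15 counts 11 came from CTRL pool 2, and without it the value was 3.41-fold. In the DN pools the floor of outputs (0 counts) lay 3.56-fold below the level of inputs (4 counts). That value rested on the input of pool 1. Counting error of the inputs is not in these values, so they are no lower limits of the fold. The gene did not pass the filter on low counts and was not tested. Of 7 markers of telencephalic glutamate neurons, which carry Slc17a7, Emx1 was at 0 counts in every group. Tbr1, Neurod6 and Neurod2 averaged 0.123, 0.202 and 0.0458 CPM in DN outputs and 0.114, 0.144 and 0 CPM in CTRL outputs. In DN inputs Tbr1 averaged 1.92 CPM, Neurod6 had 10.3 CPM in pool 3 and 0 in pools 1 and 2, and Neurod2 averaged 0.236 CPM. In CTRL inputs the averages were 0.125, 0.240 and 0.436 CPM. The other markers did not all point one way: Nrgn averaged 11.8 CPM in DN outputs against 2.59 in DN inputs and 7.18 in CTRL outputs against 1.94 in CTRL inputs, and passed in neither (adjusted p = 0.123 and 0.203, edgeR), while Cux2 averaged 2.82 CPM in DN outputs against 7.66 in DN inputs and 6.47 in CTRL outputs against 7.94 in CTRL inputs. Bcl11b averaged 4.71 CPM in DN outputs against 9.24 in DN inputs, with 21.6 CPM in the input of DN pool 2. In CTRL it averaged 7.65 CPM in outputs against 7.415 in inputs. The part of such cells in the Slc17a7 counts was not tested.

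Slc17a8 was a low transcript whose values varied several-fold between libraries of 1 group. The gene (ENSMUSG00000019935) lies on the minus strand of chromosome 10 at 89574020 to 89621253. In DN pools 1, 2 and 3 it had 2.08, 3.05 and 0.838 CPM in outputs, against 11.8, 4.62 and 14.9 CPM in inputs. In CTRL pools 1, 2 and 3 it had 22.2, 5.28 and 6.67 CPM in outputs, against 13.6, 3.40 and 6.25 CPM in inputs. The DN outputs thus lay below all 9 other libraries, and the CTRL outputs overlapped the CTRL inputs. The share of all genes with such a split was not counted. Its counts ranged from 61 in the output of DN pool 3 to 1558 in the output of CTRL pool 1, so counting error is small against the spread between pools. Of 6 markers of serotonin and cholinergic neurons, which can carry Slc17a8, Slc18a3, Tph2, Slc6a4 and Chat were at 0 counts in DN outputs, and Tph2, Slc6a4 and Fev in CTRL outputs. Slc5a7, the choline carrier, had 31.5 CPM in the output of DN pool 1, against 2.35 and 1.003 CPM in the outputs of DN pools 2 and 3, and 0.971 to 2.12 CPM in CTRL outputs. In inputs it had 0 to 0.520 CPM in DN and 1.95 to 8.88 CPM in CTRL. Without Slc5a7 the 5 other markers summed to 0 to 0.373 CPM in DN outputs, 0.286 to 0.648 in DN inputs, 0 to 1.73 in CTRL outputs and 0 to 0.348 in CTRL inputs. The part of such cells in these values was not tested.

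Set against each other per kilobase, the transporters were nearly all Slc17a6. Of the summed level of the 3 genes within a library, Slc17a6 made up 99.7% ± 0.149 in DN outputs, 96.1% ± 2.42 in DN inputs, 98.1% ± 1.45 in CTRL outputs and 96.9% ± 2.11 in CTRL inputs (SD, n = 3 each). Slc17a8 made up 0.267% ± 0.149 in DN outputs, 3.90% ± 2.42 in DN inputs, 1.87% ± 1.45 in CTRL outputs and 3.08% ± 2.17 in CTRL inputs. The shares of Slc17a8 were lower in each DN output than in each DN input, while those of CTRL outputs and CTRL inputs overlapped. Slc17a7 stood at 0.0132% in DN inputs and 0.0618% in CTRL inputs on average and at 0 in outputs.

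Slc17a6 was the one member that passed the test between outputs and inputs, and it did so in both groups of pools. It rose by 1.43 ± 0.17 on the log2 scale in DN outputs over DN inputs (SE, 2.69-fold, adjusted p = 0.000555, edgeR), where 3.38% of 13041 tested genes passed in either direction and 1.84% were higher. In CTRL outputs over CTRL inputs it rose by 1.20 ± 0.14 (2.30-fold, adjusted p = 0.000807, edgeR), where 3.20% of 13456 tested genes passed and 1.78% were higher. By p it ranked 42nd in DN and 37th in CTRL. Without CTRL pool 1 the CTRL value was 1.13 with adjusted p = 0.0516, and over the 13 alternatives its adjusted p ran from 5.42e-13 to 0.0516. In the DN pools it passed under all 13 alternatives, with adjusted p from 3.98e-13 to 0.0172. In bulk RNA such as this, fewer cells of a type and less RNA per cell cannot be told apart.

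The other 3 tested members did not pass between outputs and inputs. Slc17a8 had a log2 fold change of -2.40 ± 0.83 in DN (95% interval -4.21 to -0.60, adjusted p = 0.162 with edgeR), and of 0.54 ± 0.68 in CTRL (-0.94 to 2.03, adjusted p = 0.76). With DESeq2 the DN value was -2.44 with adjusted p = 0.0207, which passes. Over the other alternatives in DN its adjusted p ran up to 0.605, and without DN pool 3 its value was -1.69. The DN outputs and DN inputs of Slc17a8 did not overlap, which held for 22.5% of the genes tested there. Over the 4 tested members the median log2 fold change was 0.18 in DN, against 0.00 over all genes tested, and 0.14 in CTRL, against 0.02.

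Within the pools, each Slc17a6 ratio pointed to the output. The log2 ratio of output to input, on CPM plus 1, was 1.51, 1.29 and 1.51 in DN pools 1, 2 and 3, and 1.35, 0.92 and 1.37 in CTRL pools 1, 2 and 3. For Slc17a8 the ratios were -2.05, -0.47 and -3.11 in the DN pools and 0.67, 0.51 and 0.08 in the CTRL pools. The ratio of Slc17a6 thus varied little between pools (SD 0.22 over 6), whereas that of Slc17a8 had an SD of 1.53 and was negative in the 3 DN pools and positive in the 3 CTRL pools. The ratio of Slc17a6 exceeded that of Slc17a8 in 6 of 6 pools, by 0.40 to 4.62, with each DN pool above each CTRL pool. An exact two-sided sign-flip permutation test over the 6 pools gave p = 0.0312, the smallest that 6 pools allow. Adjusted over the 3 pairs of transporters it was 0.0469, but only through a tie with the pair of Slc17a7, and with no tie it would be 0.0938, so the difference is given as a description. The Slc17a7 ratio lay between -0.48 and 0 because its CPM is far below the 1 CPM added, and no test with it is given.

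**Figure D2:**
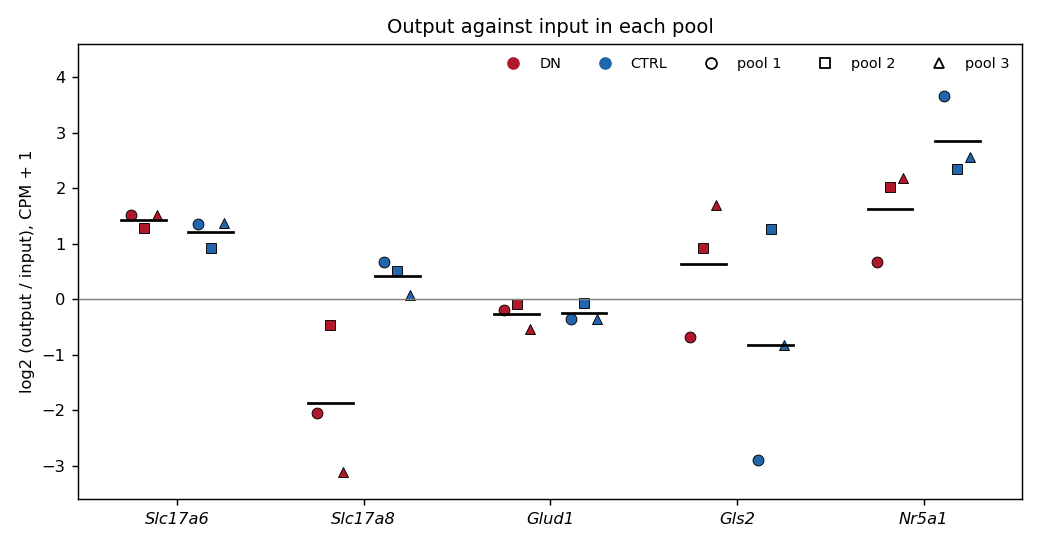
Log2 ratio of output to input, on CPM plus 1 (vertical axis), in the 3 DN pools and the 3 CTRL pools for each gene (horizontal axis). Each point is 1 pool, short bars are means of 3 pools and the line at 0 marks equal levels. Slc17a6 lies between 0.92 and 1.51 in all 6 pools, Glud1 between -0.53 and -0.07, and the DN and CTRL pools of Slc17a8 lie on opposite sides of 0.

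Glud1 was abundant in both fractions. The gene (ENSMUSG00000021794) lies on the plus strand of chromosome 14 at 34310727 to 34345265. In DN pools 1, 2 and 3 it had 375, 365 and 294 CPM in outputs, against 429.5, 389.7 and 426 CPM in inputs. In CTRL pools 1, 2 and 3 it had 345, 343 and 253 CPM in outputs, against 440.4, 359.7 and 324 CPM in inputs. The output was lower than the input of the same pool in 6 of 6 pools, with log2 ratios of -0.20, -0.10 and -0.53 in the DN pools and -0.35, -0.07 and -0.35 in the CTRL pools. Each DN output also lay below each DN input, while in CTRL the groups overlapped. Outputs and inputs did not overlap for 22.5% of the genes tested in DN. Neither comparison passed: the log2 fold change was -0.28 ± 0.15 in DN (95% interval -0.60 to 0.03, adjusted p = 0.386, edgeR) and -0.27 ± 0.17 in CTRL (-0.64 to 0.11, adjusted p = 0.488). Per kilobase it averaged 81.8 ± 10.4 CPM in DN outputs, 98.6 ± 5.25 in DN inputs, 74.6 ± 12.5 in CTRL outputs and 89.0 ± 14.2 in CTRL inputs. In level it ranked 108th of the 13430 genes in DN outputs, 61st in DN inputs, 100th in CTRL outputs and 61st in CTRL inputs. The Glud1 transcript shares 8.17% of its 50-base windows with Glud-ps or Gm43444. Gm43444 had 2 counts in 1 DN output and 0 in the other libraries. Glud-ps matched no identifier in the count files, so its counts could not be checked.

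Gls2 was low and uneven between libraries. The gene (ENSMUSG00000044005) lies on the plus strand of chromosome 10 at 128194457 to 128210004. In DN pools 1, 2 and 3 it had 1.77, 3.50 and 2.49 CPM in outputs, against 3.46, 1.38 and 0.0800 CPM in inputs. In CTRL pools 1, 2 and 3 it had 0.114, 3.04 and 3.68 CPM in outputs, against 7.31, 0.680 and 7.27 CPM in inputs. The groups overlapped in both comparisons. The log2 fold change of output over input was 0.65 ± 1.26 in DN (95% interval -2.09 to 3.39, adjusted p = 0.864, edgeR) and -1.18 ± 1.15 in CTRL (-3.70 to 1.34, adjusted p = 0.679), so differences of several-fold in either direction were not detectable at this spread. Its counts ran from 2 to 235 per library, and 97 exon bases overlap Spryd4 on the other strand, a gene with 938 counts over all libraries; the strand setting of the counting is not given in the sources used here.

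In level per kilobase the order within outputs was Slc17a6 and Glud1, which did not overlap, with Slc17a8 and Gls2 far below them and Slc17a7 at 0 counts. Gls2 and Slc17a8 overlapped in DN outputs, where Slc17a8 averaged 0.422 ± 0.235 CPM per kilobase (SD, n = 3 in this and the other groups) and Gls2 0.744 ± 0.251. They did not overlap in CTRL outputs, where Slc17a8 was the higher at 2.41 ± 1.995 and Gls2 averaged 0.655 ± 0.547. In inputs Glud1 came before Slc17a6, without overlap. Slc17a8 averaged 2.21 ± 1.12 in DN inputs and 1.64 ± 1.12 in CTRL inputs, and overlapped Gls2, at 0.472 ± 0.491 in DN inputs and 1.46 ± 1.10 in CTRL inputs.

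With dominant-negative AMPK no member passed the test in either fraction. In DN outputs against CTRL outputs 0 of 13333 genes were called by edgeR (0% called), 721 had an unadjusted p under 0.05, DESeq2 called 58 and limma-voom 1. In the members the count was 0 by each of these tools, and 2 had an unadjusted p under 0.05, Slc17a6 and Slc17a8. These comparisons use the same libraries as the comparisons of outputs with inputs, so they are no independent set.

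Slc17a6 was higher in each DN output than in each CTRL output, at 709 to 996 CPM against 610.0 to 694 CPM. The log2 fold change was 0.33 ± 0.14 (95% interval 0.02 to 0.65, adjusted p = 0.911, edgeR), or 1.26-fold, and it did not pass. Groups did not overlap for 11.0% of the genes tested there. Without DN pool 1, whose output had the 996 CPM, the value was 0.20, and over all left-out libraries it ran from 0.20 to 0.44. Beside it, 8 of 10 VMN markers had a positive log2 fold change, with a median of 0.40 and none past the test, against 0.01 over all genes. In inputs 8 of 10 were also positive, with a median of 0.45 and none past the test, against 0.03 over all genes. The log2 fold change of Nr5a1 was -0.02 in outputs, with overlapping groups. In inputs it was 1.54 (95% interval -0.05 to 3.13, adjusted p = 0.997, edgeR), with each DN input above each CTRL input. Groups did not overlap for 10.5% of the genes tested in inputs, and Nr5a1 had 29 to 182 counts per input library. Astrocyte markers summed to 1122 to 1217 CPM in DN outputs and 1636 to 1854 CPM in CTRL outputs. The 9 other than Slc1a2 overlapped, at 228 to 299.6 CPM summed in DN outputs and 243 to 337 CPM in CTRL outputs. Leaving out Slc1a2 was chosen after the values were seen. Of 7 tested oligodendrocyte markers 0 had a positive log2 fold change in outputs, with a median of -0.73 and none past the test. The part of these markers in the Slc17a6 value was not tested. In inputs the log2 fold change of Slc17a6 between DN and CTRL was 0.11 (95% interval -0.25 to 0.47, adjusted p = 0.997, edgeR).

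Slc17a8 was lower in each DN output than in each CTRL output, at 0.838 to 3.05 CPM against 5.28 to 22.2 CPM. The log2 fold change was -2.52 ± 0.81 (95% interval -4.29 to -0.75, adjusted p = 0.91, edgeR; adjusted p = 0.0967 with DESeq2), which did not pass. DN and CTRL outputs did not overlap for 11.0% of the genes tested there. Without the output of CTRL pool 1 the log2 fold change of Slc17a8 was -1.59. In inputs the direction was the other one, at 0.43 (95% interval -0.98 to 1.83, adjusted p = 0.997), and the groups overlapped. The difference between DN and CTRL in the output-to-input effect was -2.94 ± 1.05 (95% interval -5.16 to -0.72, adjusted p = 0.714, edgeR, all 12 libraries). That term called 0 of 15011 genes (0% called) with edgeR and 0 with limma-voom, 91 with DESeq2, and 933 at an unadjusted p under 0.05; Slc17a8 had adjusted p = 0.222 with DESeq2.

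The enzymes showed no difference that passed. In outputs the DN over CTRL log2 fold change was 0.13 for Glud1 (95% interval -0.24 to 0.50, adjusted p = 0.981, edgeR) and 0.18 for Gls2 (-2.34 to 2.71, adjusted p = 0.999). In inputs it was 0.15 for Glud1 (-0.18 to 0.48) and -1.63 for Gls2 (-4.23 to 0.96), each with adjusted p = 0.997. The interval of Gls2 spans several-fold in each direction. In inputs edgeR called 1 of 13221 genes (0.00756% called), which was not a member, and 0 members had an unadjusted p under 0.05 or passed with DESeq2 or limma-voom. The median of the 4 tested members was 0.16 in outputs, against 0.01 over all genes, and 0.13 in inputs, against 0.03.

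**Figure D3:**
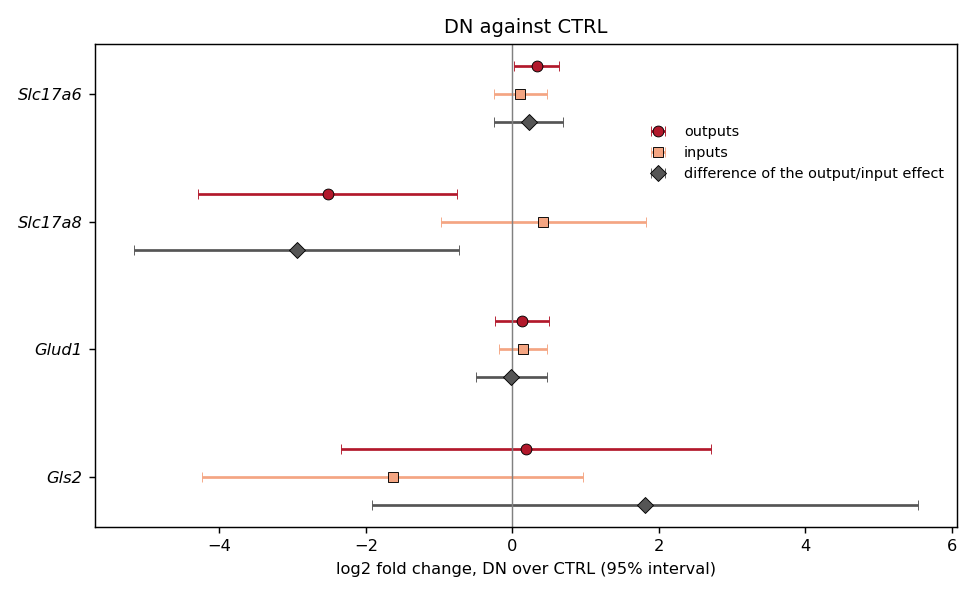
Log2 fold change of DN over CTRL (horizontal axis) with its 95% interval for outputs, for inputs and for the difference between DN and CTRL in the output-to-input effect, for each gene (vertical axis). For Slc17a6 the interval of outputs runs from 0.02 to 0.65 and for Slc17a8 from -4.29 to -0.75, and none of the points passes after adjustment over all genes.

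Other genes of the glutamate cycle were given by 4 lists. Between outputs and inputs edgeR called 4 of the 41 tested in DN and 5 of 43 in CTRL. DESeq2 called 8 and 10, and limma-voom 4 and 5. Over all genes edgeR called 3.38% in DN and 3.20% in CTRL. DESeq2 called more of all genes, as given in the section on how results depend on the processing. The counts of DESeq2 and limma-voom are thus no result about the lists. In the list of glutamate and glutamine metabolism 0 genes rose and 1 fell in DN outputs against inputs, of 8 tested, and 0 rose and 1 fell in CTRL, of 10. Over all genes tested 1.54% were lower in DN outputs and 1.42% in CTRL outputs. The gene that fell was Glul, glutamine synthetase of astrocytes, with 81.6 ± 13.4 CPM in DN outputs against 306 ± 25.2 in DN inputs (log2 fold change -1.92 ± 0.18, adjusted p = 0.00013, edgeR). In CTRL it had 116 ± 27.4 CPM in outputs against 255 ± 14.2 in inputs (-1.15 ± 0.19, adjusted p = 0.00972). The list's median was 0.04 in DN and -0.29 in CTRL. Of 11 tested carriers of glutamine and glutamate in each group, 0 rose and 2 fell, in DN and in CTRL. They were Slc1a3 and Slc1a2, the glutamate uptake carriers of astrocytes. Slc1a3 had 36.7 ± 10.5 CPM in DN outputs against 197 ± 25.0 in DN inputs (-2.44 ± 0.25, adjusted p = 0.000229), and 33.8 ± 6.01 in CTRL outputs against 201 ± 28.4 in CTRL inputs (-2.58 ± 0.20, adjusted p = 3.8e-05). Slc1a2 had 915 ± 61.1 CPM in DN outputs against 2244 ± 153 in DN inputs (0.405 of the input level in the fit, adjusted p = 1.7e-05), and 1414 ± 107 in CTRL outputs against 2494 ± 332 in CTRL inputs (0.563 of it, adjusted p = 0.00538). The carriers' median was -0.29 in DN and -0.39 in CTRL.

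For the pump that drives vesicle loading, 12 of 18 subunit genes had a positive log2 fold change in DN outputs over inputs and 13 of 18 in CTRL, where 50.2% of all tested genes in DN and 51.0% in CTRL did. Of the 18, 1 rose and 0 fell in DN outputs, with a median of 0.30, and 1 rose and 0 fell in CTRL outputs, with a median of 0.21, beside 1.84% of all genes higher in DN and 1.78% in CTRL. DESeq2 called 2 of the 18 in DN and 3 in CTRL, and limma-voom 1 in each. The shares of genes called higher are edgeR's, so the counts of DESeq2 and limma-voom are no result about the pump. DESeq2 called more genes in all, as given in the section on how results depend on the processing. In DN the gene was Atp6v1g2, a subunit of the neuronal pump, with 499.7 ± 71.8 CPM in outputs against 298 ± 17.8 in inputs (log2 fold change 0.73 ± 0.15, adjusted p = 0.019, edgeR). In CTRL it was Atp6v1a, the catalytic subunit, with 429 ± 18.9 CPM in outputs against 253 ± 24.3 in inputs (0.75 ± 0.13, adjusted p = 0.0128). Atp6v1g2 in CTRL was 0.65 ± 0.17 (adjusted p = 0.0595) and Atp6v1a in DN 0.55 ± 0.17 (adjusted p = 0.118). Each call ended when any 1 of the 3 pools of its group was left out, and over the alternatives adjusted p went up to 0.189 for Atp6v1g2 in DN and 0.156 for Atp6v1a in CTRL.

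Of the vesicular transporters of other transmitters and other relatives of the Slc17 family, 4 were tested. In DN outputs against inputs 0 passed with edgeR and limma-voom, 2 with DESeq2, and 3 had an unadjusted p under 0.05, with a median of -1.08. In CTRL 2 passed with DESeq2, and the median was -1.11. The DESeq2 counts are given without that tool's share of all genes. With edgeR 0 rose and 1 fell in CTRL, beside 1.42% of all genes lower with the same tool. The gene was Slc18a2, the vesicular monoamine transporter, with 11.2 ± 4.85 CPM in CTRL outputs against 51.6 ± 11.6 in CTRL inputs (log2 fold change -2.21 ± 0.38, adjusted p = 0.0105, edgeR). In DN it had 21.5 ± 9.26 CPM in outputs against 44.3 ± 8.43 in inputs (-1.05 ± 0.38, adjusted p = 0.184 with edgeR). There DESeq2 alone of the 13 alternatives called it (adjusted p = 0.047). Slc32a1, the vesicular GABA transporter, had a log2 fold change of -2.17 in both groups of pools and did not pass with edgeR (adjusted p = 0.172 in DN and 0.0817 in CTRL). Per kilobase, the level of Slc17a6 over that of Slc32a1 within a library was 82.3, 123 and 522 in DN outputs from lowest to highest, against 8.53, 13.9 and 14.1 in DN inputs. It was 145, 162 and 281 in CTRL outputs, against 16.0, 16.5 and 20.1 in CTRL inputs. Calls of Glul, Slc1a2 and Slc18a2 in CTRL ended without pool 1 or without pool 2, with adjusted p up to 0.133, 0.133 and 0.188, whereas Slc1a3 passed under all 13 alternatives in both groups.

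**Figure D4:**
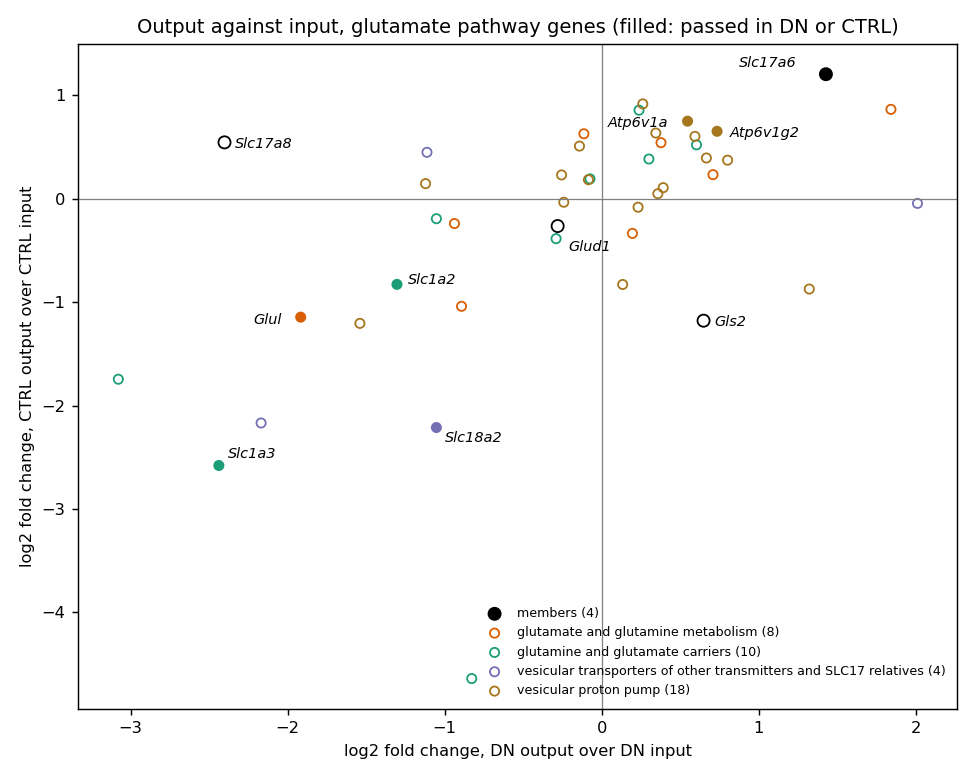
Log2 fold change of output over input in DN (horizontal axis) against that in CTRL (vertical axis) for each gene of the set and of the 4 lists tested in both groups. Filled points passed the test in DN or in CTRL. Slc17a6, at 1.43 and 1.20, lies at the upper right, and Slc1a3, at -2.44 and -2.58, at the lower left.

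Between DN and CTRL, edgeR called 0 of the 42 tested genes of these 4 lists in outputs and 0 of 42 in inputs. In outputs 3 had an unadjusted p under 0.05 and DESeq2 and limma-voom called 1 each, whereas in inputs each of these counts was 0. The gene called was Slc1a2 with both tools, named after its values were seen. It had 918, 853 and 974.7 CPM in the outputs of DN pools 1, 2 and 3, against 1393, 1529 and 1319 CPM in the outputs of CTRL pools 1, 2 and 3. Its log2 fold change was -0.63 ± 0.11 with adjusted p = 0.88 in edgeR, against 0.00949 in DESeq2 and 0.0235 in limma-voom.

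For each tested member, the 3 genes with the most similar pattern were taken by Pearson's r of log2(CPM + 1) over the 12 libraries, among 7874 genes. For Slc17a6 they were Camsap2 (r = 0.983), Cacna2d1 (0.976) and Slmap (0.975). For Glud1 they were 2310022B05Rik (0.884), Maged2 (0.866) and Acaca (0.853). For Slc17a8 they were Hlcs (0.859), Golph3l (0.836) and Rpl35a (0.793), and for Gls2 Fbxo34 (0.812), Itm2b (0.795) and Galnt1 (0.787). The 12 libraries share 6 pools and fall into outputs and inputs of different depth, and the values are a description.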

How the data were processed

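The deposited values are read counts per Ensembl gene, 1 file per library, with no normalization by the authors. The submitters' processing notes name GRCm38, HTSeq 0.6.1, STAR 2.4.2a and cutadapt 1.3. Their parameters, the strand setting and the annotation release were not given in the sources used here. Per the labels, all RNA was linearly amplified (NuGEN Ovation) before sequencing. The 5 HTSeq classes of reads without a gene, 16.1% to 26.1% of all entries, were left out. Symbols, positions and transcripts came from GENCODE M21, which held 46005 of 46517 identifiers. All libraries differed from each other.

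Genes were tested across the whole table with edgeR's two-sided quasi-likelihood test (version 4.0.16, R 4.3.3) after TMM scaling. The filter was filterByExpr with at least 10 counts and a total of at least 15, and p values were adjusted by Benjamini-Hochberg at 0.05, each comparison in a fit of its 6 libraries and the difference of effects in a fit of all 12. Levels are CPM with TMM factors over the 12 libraries, and CPM per kilobase divides by the union of exons. Floors used 3 counts and, like all limits from counts, cover counting error only. Ratios within a pool used CPM plus 1. The script was tested on simulated data. Alternatives were DESeq2 1.42.0, limma-voom (limma 3.58.1), other scalings and filters, the pool as a block, and each library or pool left out.

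The output and input of one number come from one pool, per the series' design, so the numbers pair them. Across genes, their departures from the group mean correlated at 0.004, -0.002 and 0.015 in DN and 0.096, 0.035 and 0.156 in CTRL. DN and CTRL pools share only a number. Each pool is other animals, so p values measure the spread between pools. Named were the 5 members and Nr5a1, up to 4 called genes with the smallest p per list and comparison, and the most similar patterns; other genes were named after their values were seen. The members and lists were chosen with earlier results of these data known. A few list genes are not reported here, and counts, sums and medians of lists are over the rest.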

Additional observations from a re-analysis of the deposited data

Results flagged for a closer look

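The output-to-input ratio of Slc17a8 was flagged because it was lower than 1 in every DN pool and higher than 1 in every CTRL pool. The log2 ratios were -2.05, -0.47 and -3.11 in DN pools and 0.67, 0.51 and 0.08 in CTRL pools. In CTRL pool 3 the values were close, at 6.67 CPM in the output and 6.25 CPM in the input. How many of all genes split this way was not counted. The test of the difference itself, the interaction term over all 12 libraries, gave -2.94 ± 1.05 on the log2 scale and did not pass (adjusted p = 0.714, edgeR). Its size lay between -3.74 and -2.23 when 1 pool was left out.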

How the results depend on the processing

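Slc17a6 was higher in outputs under all 13 alternatives in DN and in CTRL, and its call held in 13 in DN and 12 in CTRL; with pools left out the CTRL value ran from 1.13 to 1.36, and the call ended without CTRL pool 1, so the count of members called in CTRL ran from 0 to 1. DESeq2 called Slc17a8 in DN outputs against inputs (-2.44, adjusted p = 0.0207), which made 2 members. The cause of the differences between tools was not tested.

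With the pool as a replicate block, Slc17a6 was 1.43 in DN and 1.205 in CTRL, 396 genes passed in DN and 527 in CTRL, and no member's call changed. Between DN and CTRL the block joins unrelated animals; there Nr5a1 in outputs turned to 0.035.

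Genes called in CTRL outputs against inputs were 431, but 1172 with DESeq2, 903 without the filter and 45 to 214 with a pool left out. In DN they were 441, but 1124 with DESeq2, 288 with limma-voom, 976 without the filter, 673 in a fit of all 12 libraries and 115 to 148 with a pool left out. In DN against CTRL outputs DESeq2 called 58 and limma-voom 1, against 0. In inputs the count was 1, but 2 with DESeq2, 9 with limma-voom, 39 without the filter, 0 to 8 with a library left out, and 0 with DESeq2 size factors, upper quartile scaling, a mean of at least 5 CPM, the fit of 12, the block, no mitochondrial genes or nuclear library size. The interaction gave 91 with DESeq2 and 54 without the filter, against 0.

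Signs near 0 turned. With libraries left out, DN over CTRL in outputs ran from -0.38 to 0.71 for Gls2 (1.26 with limma-voom, 0.98 with the block; -2.81 to -1.07 in inputs), -0.001 to 0.23 for Glud1 and -0.33 to 0.49 for Nr5a1. The Glud1 interaction ran from -0.10 to 0.11 with a pool left out and was 0.01 with upper quartile scaling. Scaling by nuclear library size moved the median of all genes by -0.15 in CTRL and -0.18 in DN; leaving out the filter moved it by -0.10 in CTRL. With 5 pools the smallest exact permutation p is 0.0625, so the difference of Slc17a6 against Slc17a8, 1.54 to 2.38, cannot pass. That against Slc17a7 was 1.43 to 1.51 with a pool left out and up to 2.17 over all settings. Its Slc17a7 part is set by the CPM added. Nuclear library size, leaving out mitochondrial genes and sums without Slc1a2 or Slc5a7 were chosen after seeing the data. So were the adjustment with no tie and the Slc17a7 floor comparison without a pool. A mean of at least 5 CPM gave no value for Gls2, nor for Slc17a8 in DN outputs against inputs. Slc17a7 did not pass the filter on low counts, whereas Gls2 was tested but varied widely between pools, with 8 to 224 counts in CTRL outputs.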

Other observations

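Within a library, the level of Slc17a6 per kilobase over that of Gad2, an enzyme of GABA synthesis, was 4.22, 4.95 and 5.29 in DN outputs from lowest to highest, against 2.76, 2.87 and 3.58 in CTRL outputs. In inputs it was 0.444, 0.564 and 0.584 in DN, against 0.435, 0.487 and 0.519 in CTRL. The outputs did not overlap and the inputs did. Over other genes the outputs did overlap: the same ratio over Slc32a1, the vesicular GABA transporter, was 82.3 to 522 in DN outputs and 145 to 281 in CTRL outputs, and over Fezf1, a VMN marker, 1.56 to 1.66 in DN outputs and 1.56 to 1.95 in CTRL outputs. The ratio over Gad2 was picked after the values were seen and no test was made of it.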
